A study of Arabidopsis thaliana with 96 samples.

Results

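The accessible chromatin of the Arabidopsis thaliana accession En-2 was described from its 4 ATAC-seq peak lists, set against the lists of Ad-0, Hi, Mt and Og, which also have 4 files each and carry the sequence names of the Col-0 reference. A consensus region was a run of bases that lay in peaks of at least 2 of the 4 files of an accession, on the 5 nuclear chromosomes. En-2 had 12107 such regions, which covered 2.55% of the nuclear genome. Of these, 562 overlapped no region of the other 4 accessions and are called En-2-only. Conversely, 4075 stretches lay in regions of all 4 other accessions, and 61 of them had no base in an En-2 region; these are called missing in En-2. The whole series holds 96 files. The 20 files compared here came from leaf tissue of plants kept at one temperature and one long-day photoperiod, and no treatment or introduced allele separates the groups, so accession is the difference given by the labels. The labels do not say how many plants a file holds.

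ATAC-seq uses the transposase Tn5 to cut and tag DNA that is not wrapped tightly around nucleosomes, so that the tagged fragments pile up over open chromatin. In A. thaliana leaves, open chromatin is found mainly around gene starts, where transcription factors bind promoter sequences, and less often within genes or far from them. Accessions are natural inbred lines that differ from the Col-0 reference by point differences, insertions and deletions, and centromeres of all of them hold long arrays of a satellite repeat. Since the labels give the TAIR10 build for all 5 accessions and the peaks carry the sequence names of Col-0, closed chromatin, a missing sequence and a diverged sequence in an accession cannot be told apart from these lists. The methods of the study speak of alignment to the own genome of each accession, and which genome was used for these 5 is not settled by the sources, so shared positions rest on the build in the labels. A leaf also holds several cell types, and fewer cells with an open region and a smaller opening in each cell cannot be told apart either.

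The 11 regions printed here carry the comparisons that follow. The first set holds 4 regions listed in 4 of 4 En-2 files and in 0 of the 16 other files, the second 5 regions with the opposite pattern, and the third the 2 regions of all 5 accessions with the largest En-2 excess. All are TAIR10 plus-strand sequence of the Col-0 reference as held by RefSeq, 5′ to 3′, not En-2 sequence. Regions over 250 bp are shown by their middle 250 bp. Capitals mark the motifs searched (G-box CACGTG, site II element GGCCCA, I-box GATAAG, DRE ACCGAC, evening element AAAATATC, telo-box AAACCCTA and GAGA repeat GAGAGAGA, on both strands), except in the regions near AT2G07981 and AT5G31821, where they mark the longest stretch that both share.
AT4G05631 region, chr4:2990155-2990404: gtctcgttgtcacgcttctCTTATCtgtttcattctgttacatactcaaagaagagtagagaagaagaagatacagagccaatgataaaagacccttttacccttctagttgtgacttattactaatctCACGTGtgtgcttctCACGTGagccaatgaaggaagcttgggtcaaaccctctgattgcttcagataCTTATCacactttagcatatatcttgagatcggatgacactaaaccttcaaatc
AT1G74290 region, chr1:27932577-27932804: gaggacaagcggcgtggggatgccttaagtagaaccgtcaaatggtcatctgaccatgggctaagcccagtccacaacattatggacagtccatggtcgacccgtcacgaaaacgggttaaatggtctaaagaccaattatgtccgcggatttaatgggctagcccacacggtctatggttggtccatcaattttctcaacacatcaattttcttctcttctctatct
AT5G58660 region, chr5:23702083-23702332: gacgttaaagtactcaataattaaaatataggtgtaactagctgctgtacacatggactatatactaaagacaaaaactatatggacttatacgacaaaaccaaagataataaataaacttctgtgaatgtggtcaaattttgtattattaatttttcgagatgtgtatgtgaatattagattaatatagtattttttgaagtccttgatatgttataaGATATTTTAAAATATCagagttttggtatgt
SUB1 region, chr4:5618196-5618445: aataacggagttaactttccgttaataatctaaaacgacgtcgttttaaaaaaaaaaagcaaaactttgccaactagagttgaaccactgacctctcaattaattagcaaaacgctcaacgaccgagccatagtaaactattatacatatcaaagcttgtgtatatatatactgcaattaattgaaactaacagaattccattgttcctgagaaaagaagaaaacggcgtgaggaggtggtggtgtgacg
AT2G07981 region, chr2:3615978-3616139: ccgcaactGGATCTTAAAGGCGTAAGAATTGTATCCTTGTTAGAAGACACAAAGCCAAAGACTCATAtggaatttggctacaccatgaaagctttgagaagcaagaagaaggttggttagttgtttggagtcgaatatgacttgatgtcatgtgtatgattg
AT5G31821 region, chr5:11734766-11734900: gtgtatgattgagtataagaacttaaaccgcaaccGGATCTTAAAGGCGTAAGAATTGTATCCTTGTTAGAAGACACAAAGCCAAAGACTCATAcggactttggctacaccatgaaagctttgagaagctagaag
AT1G53460 region, chr1:19956819-19957041: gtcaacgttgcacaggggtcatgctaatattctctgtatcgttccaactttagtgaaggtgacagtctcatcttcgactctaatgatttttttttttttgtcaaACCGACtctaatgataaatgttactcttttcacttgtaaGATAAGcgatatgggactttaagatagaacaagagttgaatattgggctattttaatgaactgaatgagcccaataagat
TCH2 region, chr5:14998665-14998759: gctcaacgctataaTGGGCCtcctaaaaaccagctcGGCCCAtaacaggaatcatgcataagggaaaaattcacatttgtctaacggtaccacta
AT1G52342 region, chr1:19491664-19491827: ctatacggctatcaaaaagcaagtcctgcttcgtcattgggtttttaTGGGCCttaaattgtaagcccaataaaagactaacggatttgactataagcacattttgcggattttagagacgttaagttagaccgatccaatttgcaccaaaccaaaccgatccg
AT5G10340 region, chr5:3253065-3253314: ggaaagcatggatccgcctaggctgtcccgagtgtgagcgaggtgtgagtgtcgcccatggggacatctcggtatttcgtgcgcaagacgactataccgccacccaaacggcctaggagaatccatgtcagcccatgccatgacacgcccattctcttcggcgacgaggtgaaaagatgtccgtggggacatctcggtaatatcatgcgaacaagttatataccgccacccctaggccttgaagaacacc
DREB1A region, chr4:13017861-13018110: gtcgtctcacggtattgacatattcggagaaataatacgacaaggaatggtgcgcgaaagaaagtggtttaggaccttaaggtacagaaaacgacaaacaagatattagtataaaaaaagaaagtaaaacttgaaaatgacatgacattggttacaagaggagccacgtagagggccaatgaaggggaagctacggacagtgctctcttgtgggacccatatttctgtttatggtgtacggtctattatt

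En-2 had the fewest tags of the 5 accessions, from 1463227 to 1502898 per file, against 1752896 to 2442198 in the 16 files of the others, and yet it had more regions than Ad-0 (6689) and Hi (6110) and fewer than Mt (21543) and Og (15196). The level of a region is given here as the pileup of tags at the peak summit per 1000000 tags in the file header (ppm). The lowest pileup listed in a file was 3.99 to 4.1 ppm in the En-2 files, against 3.30 to 4.52 ppm in the other files. No pileup below it was listed, while one above it could still go unlisted. The 4 files of an accession differed by no more than random draws from 1 library would: an index of dispersion that is 1 for such draws was 0.868 in En-2 and 0.820 to 0.879 in the others at 2224 regions listed in all 20 files, whereas replicate 1 of En-2 set against replicate 1 of another accession gave 3.22 to 6.21. Each accession was therefore counted as 1 sample, the spread over its files covers counting error only, and no test was made of 1 accession against 4. The labelled tissue was checked with 2 gene lists. All 18 of the 18 photosynthesis genes of the leaf (such as LHCB4.1 and RBCS1A) had an En-2 region in the gene or in the 1 kb before its start, against 4 of 10 seed storage and oil body genes and 38.8% of all 27444 protein-coding genes.

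Most of the accessible chromatin of En-2 was shared. Of the 12107 regions, 3926 (32.4%) overlapped regions of all 4 other accessions, 3028 of 3 others, 3215 of 2 others and 1376 of 1 other. En-2 regions were found in Mt in 90.0% of cases and in Og in 82.8%, but in Ad-0 in 50.9% and in Hi in 45.6%, the 2 accessions with the shortest lists. The 562 En-2-only regions made up 4.64% of En-2 regions. The same count gave 1.91% in Ad-0, 0.982% in Hi, 30% in Mt and 8.8% in Og, so the En-2 share stood between those of the accessions with fewer and with more regions. The 562 regions lay nearest to 562 distinct annotated genes, pseudogenes and RNA genes, counting all that were equally near.

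**Figure D1:**
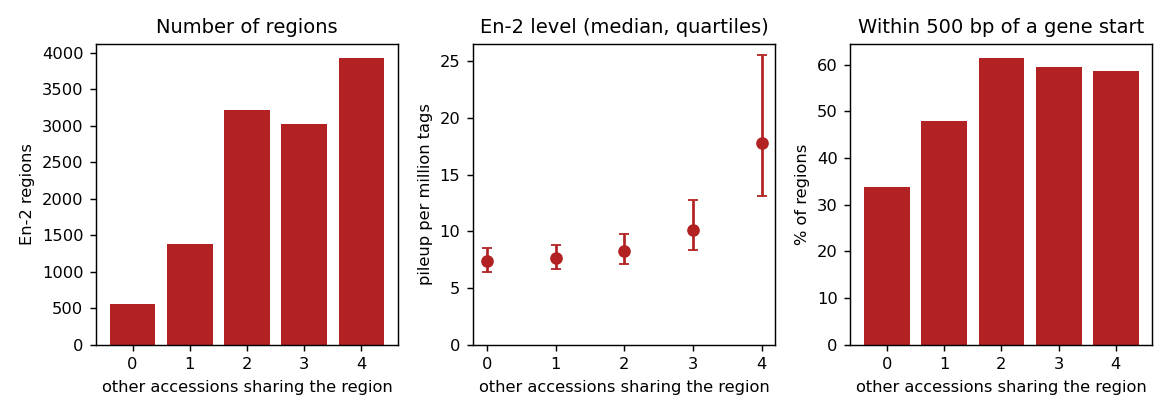
En-2 regions by the number of other accessions that share them (0 to 4). The left panel plots the number of regions, the middle panel the median En-2 level in pileup in ppm of the header tags with bars from the lower to the upper quartile, and the right panel the percent of regions whose centre lies within 500 bp of a protein-coding gene start; the 562 unshared regions have a median level of 7.39 and 33.8% lie near a start.

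The En-2-only regions were narrow and weak. Their median width was 138 bp, against 234 bp over all En-2 regions, and their median level was 7.39 ppm, against 10.1 ppm over all En-2 regions and 17.8 ppm in those shared with all 4 others. Regions shared with 1, 2 and 3 others had medians of 7.62, 8.25 and 10.1 ppm. Of the 562 regions, 346 were listed in 2 En-2 files, 124 in 3 and 92 in all 4, that is, 16.4% in all 4 files against 63.4% over all En-2 regions. A further check was made of the single files of the other accessions. In 338 of the 562 regions at least 1 of the 16 files listed a peak (Mt in 197 regions, Og in 130, Ad-0 in 111 and Hi in 33), and only 224 had none.

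The limit of depth depended on how levels were scaled. With tags from the file headers, the expected pileup of all 562 regions reached the lowest listed pileup in every file of the other accessions. That of 456 regions reached the 10th percentile of listed pileups. The first count is a weak check of depth, since levels were means over only those En-2 files that listed a region. The lowest of these levels was 5.03 ppm, above the highest limit of listing in the other files, 4.52 ppm. However, at the 2224 regions listed in all 20 files the median level was 22.7 ppm in En-2, against 12.4 in Ad-0, 12.7 in Hi, 22.6 in Mt and 17.8 in Og, so the same number of tags gave lower peaks in Ad-0 and Hi. After scaling by these shared regions, 206 of the 562 regions were above the lowest listed pileup in all 4 others, and 53 were above the 10th percentile. Thus for 356 regions the absence of a peak in at least 1 other accession was not detectable at this depth under that scaling.

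En-2-only regions lay further from gene starts than En-2 regions did in general. Their centres were within 500 bp of a protein-coding gene start in 33.8% of cases, against 57.3% of all En-2 regions, and the median distance was 914 bp, against 261 bp. By place, 40.4% lay in the 1 kb before a start, 24.4% in a protein-coding gene and 23.1% in neither and not just after a gene end, against 51.6%, 26.3% and 13.5% of all En-2 regions. In the 200 bp around the centre, the G-box, which bZIP and bHLH transcription factors bind, was present in 10.1% of En-2-only regions, against 16.3% of all En-2 regions and 23.0% of those shared with all 4 others. The site II element, a TCP factor target found in promoters of many growth genes, was present in 19.2%, against 26.9% of all En-2 regions. The I-box was present in 12.5%, against 13.7%, and the DRE, bound by cold and drought response factors, in 4.63%, against 6.99%. The telo-box was present in 1.07%, against 3.24%, the GAGA repeat in 8.36%, against 7.52%, and the evening element in 3.56%, against 3.51%. These differences go along with the lower level and the smaller width of the regions, whose part in them was not tested. By annotated product, 30 En-2-only regions (5.34%) lay nearest to a transcription factor gene, against 5.48% of all En-2 regions. NLR immune receptor genes were nearest to 3 (0.53%, against 0.36% of all En-2 regions), cytochrome P450 genes to 7 (1.25%, against 0.83%) and F-box genes to 2 (0.36%, against 0.89%). Receptor-like kinase genes were nearest to 4 (0.71%, against 1.40%) and tRNA genes to 10 (1.78%, against 2.89%).

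**Figure D2:**
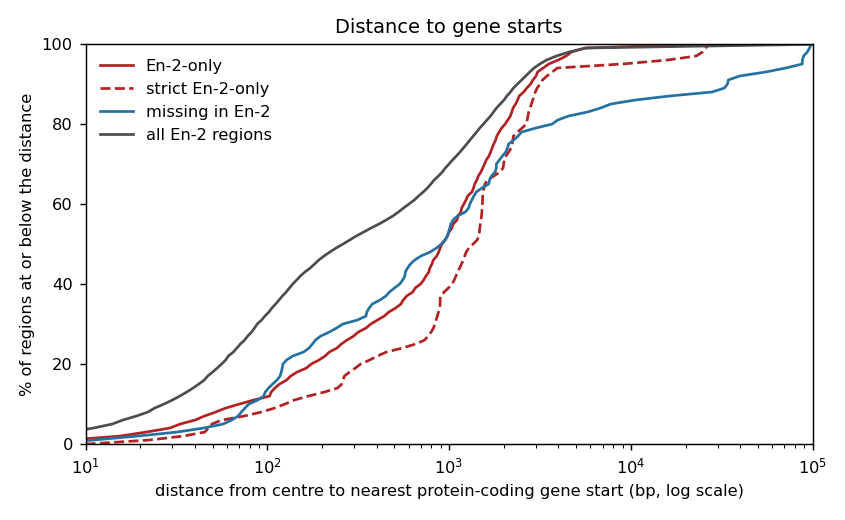
Distance from the centre of a region to the nearest protein-coding gene start in bp (log axis) against the percent of regions at or below that distance, for En-2-only regions, strict En-2-only regions, regions missing in En-2 and all En-2 regions. The lines cross 50% at 914 bp for En-2-only regions, 1357 bp for the strict ones, 907 bp for missing regions and 261 bp for all En-2 regions.

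A strict set was taken from the extremes of listing: 36 regions were listed in 4 of 4 En-2 files and in no file of the others. Their median level was 10.4 ppm and their median width 214 bp. The 36 were among 12107 En-2 regions. Ad-0 had 6 regions of this kind among 6689, Hi 10 among 6110, Mt 1051 among 21543 and Og 155 among 15196. Of the 36 regions, 13 lay on chromosome 1 (36.1%, against 25.6% of all En-2 regions), 10 on chromosome 4 (27.8%, against 15.6%), 8 on chromosome 5 (22.2%, against 22.2%), 4 on chromosome 3 (11.1%, against 19.7%) and 1 on chromosome 2 (2.78%, against 16.8%). In this set 10 (27.8%) lay in the 1 kb before a gene start and 12 (33.3%) in a protein-coding gene. A further 3 (8.33%) lay after a gene end and 11 (30.6%) elsewhere. Over all En-2 regions these shares were 51.6%, 26.3%, 8.65% and 13.5%, in the same order. None of the 36 overlapped a region of untreated Col-0, whose file headers name naked DNA. Only 1.54% of all En-2 regions did, so that 0 of 36 says nothing particular of the set. Of the 36, 4 (11.1%, against 2.06% of all En-2 regions) were mostly repeated sequence. Repeated sequence means that over 50% of the 30-mers of a region occur more than once in the reference. With the header tags all 36 were above the lowest listed pileup in each other accession, as all 562 En-2-only regions were. After scaling by shared regions 29 of the 36 were. The count was 67 without replicate 2 of all 5 accessions and 59 without replicate 4. Leaving out a replicate also loosens the rule, as fewer files must list or lack a peak, so these rises say little about the replicates.

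In the strict set, 3 genes (AT1G74290, SUB1 and AT5G07570) were nearest to 2 regions each. The highest level was in an intron of AT4G05631 (chr4:2990155-2990404), a gene of unknown function, with 16.0, 15.7, 20.7 and 16.9 ppm in En-2 replicates 1 to 4 and no peak in the other accessions. This stretch holds 2 G-boxes and 2 I-boxes, and its 30-mers occur 2 times in the reference (median). AT1G74290, annotated as an alpha/beta-hydrolase, held 2 strict regions in introns 714 bp apart. The first was mostly repeated sequence, with 72.4% of its 30-mers occurring more than once in the reference. At the first (chr1:27932577-27932804) the 4 En-2 files had 16.0, 19.1, 12.7 and 16.9 ppm, and at the second (chr1:27933519-27933725) they had 16.6, 13.7, 14.7 and 13.5 ppm. AT5G07570, which encodes a glycine/proline-rich protein, also held 2, 158 bp apart, both centred in a coding exon. The stronger (chr5:2394974-2395421) had 15.3, 13.7, 14.7 and 15.6 ppm. The sequence there is an imperfect tandem repeat, with 69.4% of bases equal to the base 360 bp further on. All of these values were above 4.52 ppm, the highest of the limits of listing in the 16 other files.

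SUB1, a calcium-binding protein of cryptochrome and phytochrome signalling, had a pair of regions before its start, at 103 bp (chr4:5618169-5618471) with 11.3, 13, 11.4 and 14.2 ppm and at 644 bp (chr4:5618710-5618873) with 7.98, 8.20, 10.7 and 12.8 ppm. The gene is on the minus strand, so both regions are on its promoter side. None of the searched motifs stands in the stretch shown.

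An intron of AT5G58660, a 2-oxoglutarate and Fe(II)-dependent dioxygenase gene, held a region (chr5:23702033-23702381) with 21.3, 11.6, 8.68 and 12.8 ppm, the widest spread among the strict En-2-only regions plotted, and 2 evening elements, one on each strand and side by side, stand in the stretch shown. AT5G45120, an aspartyl protease gene, had a region 763 bp before its start (chr5:18239982-18240240) with 11.3, 13.7, 12.7 and 14.9 ppm. In AT5G54700, an ankyrin repeat gene, a non-coding exon held a region (chr5:22222980-22223180) with 16.0, 11.6, 12 and 10.8 ppm. A further 3 lay outside genes: 124 bp from the pseudogene AT1G36840, with a mean of 16.0 ppm, 619 bp from the RNA gene AT5G28262, with 13.1 ppm, and 1209 bp from the RNA genes AT4G05865 and AT4G05870, with 13.6 ppm. Among the other strict regions, 1 overlapped the NLR gene AT1G63880 at its start, with a mean of 7.92 ppm, and 1 lay 160 bp from the start of RAB8, a GTPase of secretory traffic, with 7.73 ppm.

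**Figure D3:**
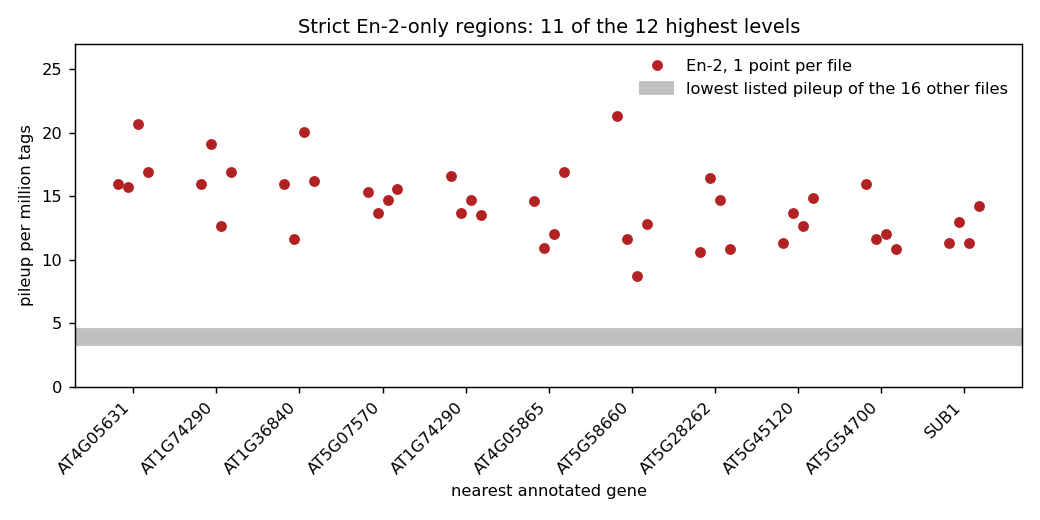
Of the 12 strict En-2-only regions with the highest mean level, 11 are plotted, by nearest annotated gene (AT1G74290 stands for 2 regions). Each point is 1 En-2 file, the y axis is pileup in ppm of the header tags, and the grey band spans the lowest listed pileups of the 16 files of Ad-0, Hi, Mt and Og, 3.30 to 4.52 ppm; the En-2 points range from 8.68 to 21.3 and none reaches the band.

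Outside the strict set, the highest En-2-only levels belonged to repeated sequence. Of the 12 highest regions outside that set, 7 lay in the part of chromosome 2 where the reference holds a copy of the mitochondrial genome, with means of 37.1 to 56.3 ppm over the 2 En-2 files that listed each. In 4 of these 7, from 1 to 3 files of the other accessions also listed a peak. The list of 18 flowering-time genes had no member nearest to an En-2-only or a missing region, whereas 538 and 50 of all 27444 protein-coding genes were, so that 0 of 18 says nothing particular of the list. An En-2 region in the gene or in the 1 kb before its start was found for 11 of the 18, FRI, SVP and GI among them, and for 1 of the 13 glucosinolate genes that could be matched, against 38.8% of all protein-coding genes. The glucosinolate gene was CYP79F1, which starts the synthesis of aliphatic glucosinolates from methionine derivatives, and the region in it (chr1:5608784-5608972) was En-2-only, with 4.78 and 6.68 ppm in En-2 replicates 2 and 3, no peak in replicates 1 and 4, and 6.71 ppm in Ad-0 replicate 4. With pileups of 7 and 10 tags in En-2 it lay close to the limit of listing.

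The opposite set was smaller. The 61 regions missing in En-2 were 1.5% of the 4075 stretches found in all 4 other accessions. The same count was 24.9% for Ad-0, 29.6% for Hi, 2.19% for Mt and 1.66% for Og, so En-2 had the lowest share of the 5. Of the 61 regions, 31 were listed in 1 En-2 file and 30 in none. The median width was 118 bp, 10 were shorter than 50 bp and 10 lay within 150 bp of an En-2 region. With the header tags, the lowest of the 4 other levels was above the lowest listed En-2 pileup in 60 of the 61 regions and above its 10th percentile in 49. The first count is again a weak check of depth, since these levels were means over only those files that listed a region. The count was 103 without En-2 replicate 3, when 2 of the 3 other files were required. The set of accessions weighed more: against Mt and Og only, whose levels at shared regions were closest to those of En-2, 4135 of 13750 stretches (30.1%) had no En-2 region.

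These regions fell into 2 kinds. In 23 of them (37.7%, against 3.95% of all 4075 stretches) most 30-mers occurred more than once in the reference. Of these 23, 20 lay in gene-poor windows of 500 kb, meaning windows with under 0.5 times the median number of genes. Of all 4075 stretches, most of them single-copy sequence, 4.12% lay in such windows. The share among repeated stretches alone was not counted, so whether 20 of 23 is particular to missing regions is not known. A peak of untreated Col-0 overlapped 21 of the 23, but only 1 of the 38 regions of single-copy sequence. Of the 2224 regions listed in all 20 files, 62 were repeated sequence, and 55 of these 62 overlapped such a peak. The overlap is thus common in repeated sequence and not particular to regions missing in En-2. In 17 of the 23 the sequence around the region repeated itself with a period near 178 bp or near 356 bp. The part of copy number in the missing En-2 peaks was not tested.

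Of the 61 regions, 7 were listed in 16 of 16 files of the others and in no En-2 file. Og had 14 regions of this kind among 4085 stretches, Mt 12 among 4071, Ad-0 223 among 5304 and Hi 237 among 5704. These stretches lay in all 4 other accessions, and those for En-2 numbered 4075. In En-2 the 7 regions had no peak at all, while the lowest listed En-2 pileup was 3.99 to 4.1 ppm. The count was 13 without replicate 1 of all 5 accessions and 11 without replicate 3, under a rule that is looser with fewer files. Of the 7, 2 lay in tandem repeats with periods of 356 and 178 bp. At the region in a coding exon of AT2G07981 (chr2:3615978-3616139), a gene of unknown function, En-2 had no peak, and the lowest, median and highest values of the 16 other files were 11.5, 19.0 and 51.4 ppm. At the region 4377 bp from the pseudogene AT5G31821 (chr5:11734766-11734900) En-2 had none, and the other files had 11.6, 18.4 and 37.8 ppm. In both, Og was apart from Ad-0, Hi and Mt, with means of 47.2 and 34.9 ppm. The 2 sequences share a stretch of 59 bp, which occurs 33 times in the 5 chromosomes of the reference, with 12 copies on chromosome 5, 11 on chromosome 1, 5 each on chromosomes 2 and 3 and 0 on chromosome 4. Another region, in the pseudogene AT4G06477 (chr4:3061253-3061381), was also repeated sequence, with 5.68, 7.93 and 14.9 ppm in the other files.

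The other 4 strict missing regions were single-copy sequence near genes, with no untreated Col-0 peak. AT1G53460 had a region of 223 bp across its start (chr1:19956819-19957041), with a DRE and an I-box in it. En-2 had no peak there, and the 16 other files had at the lowest 6.76, at the median 15.7 and at the highest 29.4 ppm; the nearest En-2 region was 646 bp away. AT1G52342, of unknown function, had a region across its end (chr1:19491664-19491827) with no peak in En-2 and 6.24, 15.9 and 24.7 ppm in the others, lowest in Ad-0. The centre of this region lay 95 bp before the start of another protein-coding gene. TCH2 encodes a calmodulin-like protein whose transcript rises within minutes of touch. Its non-coding exon held a region (chr5:14998665-14998759) with no En-2 peak and 5.20, 10.7 and 19.4 ppm in the other files, and 2 site II elements stand in it. The nearest En-2 region was 17817 bp away. The region 298 bp after the end of AT3G18050, a GPI-anchored protein gene (chr3:6183197-6183272), was 57 bp from an En-2 region and had no En-2 peak itself, against 5.04, 11.9 and 18.3 ppm in the others. Its centre lay 378 bp before the start of another protein-coding gene.

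**Figure D4:**
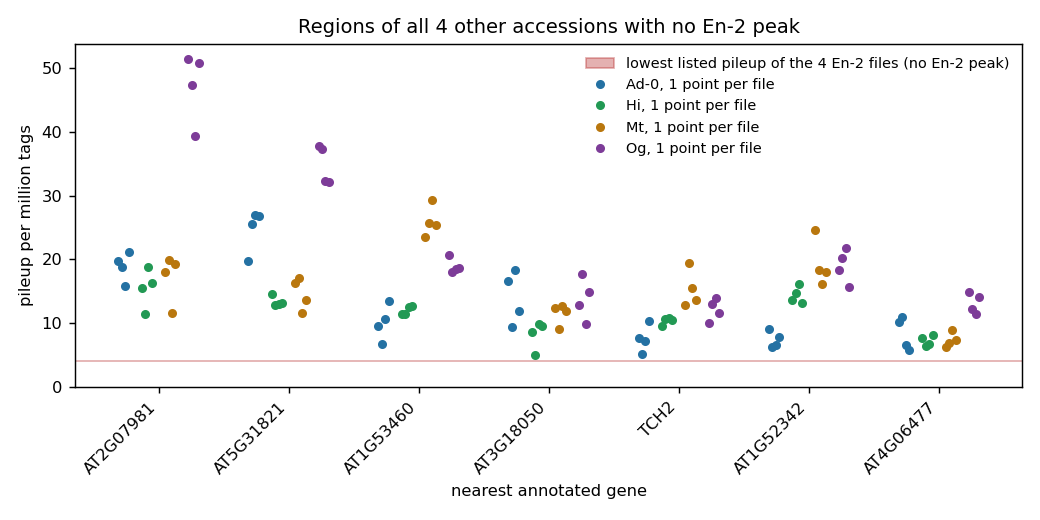
The 7 regions listed in all 16 files of Ad-0, Hi, Mt and Og and in no En-2 file, by nearest annotated gene. Each point is 1 file, the y axis is pileup in ppm of the header tags, and the red line marks the lowest pileup listed in the En-2 files, 3.99 to 4.1 ppm; all points lie above it, and Og stands highest at the 2 tandem repeat regions (AT2G07981 and AT5G31821) and at AT4G06477.

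Among the 38 single-copy regions missing in En-2, 21 (55.26%) lay in the 1 kb before a gene start and 9 (23.68%) in a gene. Of all 4075 stretches, repeated sequence included, 53.25% and 24.96% did, so these places say nothing particular of the 38. Of these 38, 7 (18.4%) were nearest to a gene annotated as a transcription factor, against 6.36% of the 3914 single-copy stretches of the 4 other accessions. These 7 genes, picked out after their values were seen, were WRKY11, WRKY41, TCP9, GATA16, NAC036, MYB55 and AT1G19210, annotated as an integrase-type DNA-binding gene. Each of the 7 regions was listed in 1 En-2 file, so that none is a complete absence, and the one near TCP9 lay 4 bp from an En-2 region while the one near NAC036 was 1 bp wide. At WRKY11, which acts in defence, the 1 En-2 file had 11.3 ppm, and the other 16 files had 6.81, 11.8 and 23.4 ppm at the lowest, median and highest. At WRKY41 the 1 En-2 file had 6.09 ppm, and the others 5.20, 12.4 and 15.4 ppm. The 1 En-2 value lay within the range of the other files at all 7. Other genes of this group, also chosen after their values were seen, were AOS, an enzyme of jasmonate synthesis, with 7.52 ppm in 1 En-2 file, against 6.35, 10.4 and 16.5 ppm at the lowest, median and highest of the 14 other files that listed it, and Hop3, a co-chaperone of heat shock proteins, with 7.98 ppm in 1 En-2 file, against 7.57, 11.4 and 15.6 ppm in 14 other files. Both En-2 values lay within the range of the others. CMPG2, a U-box ubiquitin ligase gene, had no En-2 peak and a median of 8.97 ppm in the 13 other files that listed it. Over the 38 regions the lowest of the 4 other levels had a median of 6.89 ppm, close to the limit of listing, against 8.04 ppm over all single-copy stretches.

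Levels at the 2224 regions that all 20 files listed showed En-2 as the highest of the 5 accessions in 1096 regions (49.3%) and as the lowest in 31. This rank depended on the scale. With each accession scaled by its median at these regions, En-2 was the highest in 355 and the lowest in 410. At 30 regions (1.35%) En-2 was at least 2 times the highest other accession, and at 5 (0.225%) it was at most 0.5 times the lowest. The same counts were 0 and 100 (4.5%) in Ad-0, 1 (0.045%) and 11 (0.495%) in Hi, 11 and 11 (0.495% each) in Mt and 9 (0.405%) and 0 in Og. All 4 En-2 files were above all 16 others at each of the 30 regions. The regions were chosen by these same values, so this separation follows largely from the choice and adds no support. After scaling by the median at these shared regions no region reached 2 times, and the folds of the 30 were 1.11 to 1.74. By the fold enrichment of the authors, 1 region reached 2 times above and 1 lay at most 0.5 times below. By that measure 3 of the 5 regions below kept their direction. After scaling 11 regions lay below.

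The largest excess was in the F-box gene AT5G10340, whose product belongs to the subunits that choose the targets of SCF ubiquitin ligases. A region in its coding exon (chr5:3253028-3253350) had 204, 215, 181 and 195 ppm in En-2, against 40.7, 57.4 and 72.8 ppm at the lowest, median and highest of the other 16 files, or 3.15 times the highest other accession and 1.74 times after scaling. Of the 30 regions, 1 overlapped a peak of untreated Col-0, and it was this one, with 48.0% of its 30-mers repeated, just under the 50% that marks repeated sequence. DREB1A, also known as CBF3, is a transcription factor that switches on cold-response genes. A region at the end of the gene, which also overlaps the RNA gene AT4G07385 (chr4:13017817-13018153), had 35.3, 32.8, 48.7 and 47.3 ppm in En-2, against 8.07, 12.2 and 18.8 ppm in the others (2.59 times, and 1.59 times after scaling). In a coding exon of AT1G63420, an O-glucosyltransferase-like gene, En-2 had 62.5, 62.2, 62.1 and 62.2 ppm (chr1:23516557-23517080), against 7.97, 14.6 and 26.0 ppm (2.58 times, and 1.46 times after scaling).

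PORA, a protochlorophyllide reductase of seedlings that leave darkness, had a region at its end, which also overlaps the RNA gene AT5G08155 (chr5:21990403-21990877). En-2 had 27.3, 21.9, 21.4 and 25.7 ppm there, against 6.17, 8.73 and 11.5 ppm in the others (2.53 times). The region before the start of AT3G14870 (chr3:5002060-5002362), a gene of unknown function, had 33.9, 35.5, 32.7 and 31.8 ppm in En-2, against 9.53, 12.1 and 17.6 ppm (2.52 times). In a non-coding exon of AT4G27720, a gene of the major facilitator superfamily (chr4:13830693-13831109), En-2 had 49.2, 50.6, 45.4 and 54.1 ppm, against 12.6, 18 and 23.9 ppm (2.51 times). Further regions of the 30 lay at LHCB4.1, an antenna protein of photosystem II, at 2.03 times, and at ATAF1, a NAC transcription factor of stress responses, at 2.00 times. Of the 30, 14 lay in the 1 kb before a start and 12 in a gene, against 55.8% and 22.6% of the 2224 regions, and 0 were over the 50% that marks repeated sequence.

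The largest deficits were all in repeated sequence. At the lowest (chr3:13591595-13591797), 7621 bp from the pseudogene AT3G33055, En-2 had 17.3, 17.8, 14.0 and 21.0 ppm, against 56.5, 72.6 and 204 ppm at the lowest, median and highest of the other files, or 0.27 times the lowest other accession. Another region near that gene (chr3:13587535-13587798) had 25.9, 39.0, 27.4 and 33.1 ppm in En-2, against 80.7, 105 and 348 ppm (0.36 times), and one more (chr3:13591870-13592133), which shares most of its peaks in the other accessions with the first, gave 0.44 times. The region near the pseudogene AT5G31770 (chr5:11702255-11702529) had 6.65, 8.20, 6.68 and 5.41 ppm in En-2, against 16.7, 22.3 and 57.3 ppm (0.34 times). At the pseudogene AT4G06700 (chr4:3950555-3950730) En-2 had 19.3, 17.8, 23.4 and 16.9 ppm, against 44.5, 60.1 and 156 ppm (0.42 times). The last of the 6, near AT5G34431 (chr5:12869079-12869368), was at 0.53 times and thus outside the threshold. The first 5 repeated themselves at 178 bp, and all 6 were repeated sequence that overlapped an untreated Col-0 peak, as 55 of the 2224 regions did. Og had the highest mean at each of the 6. With single-copy sequence only, 0 regions were at most 0.5 times the lowest other accession.

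**Figure D5:**
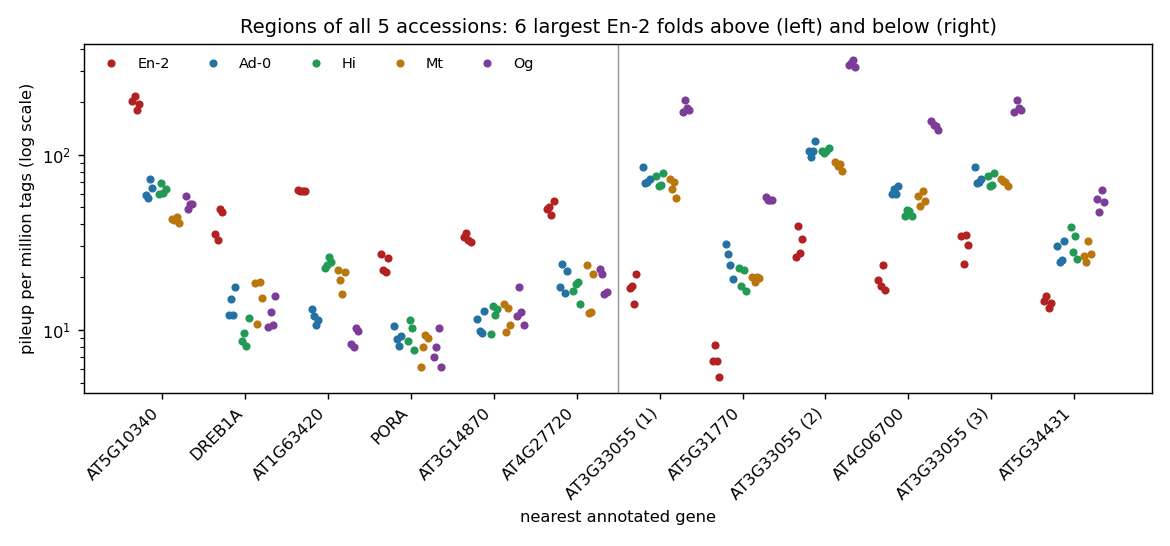
Regions listed in all 20 files with the 6 largest En-2 folds above the highest other accession (left of the line) and the 6 largest below the lowest other accession (right), by nearest annotated gene. Each point is 1 file, the y axis is pileup in ppm of the header tags on a log scale, and colours mark the accessions. The 4 En-2 files lie above the 16 others at each region on the left and below them at each region on the right. The regions were chosen by these same values. Og is highest on the right.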

How the data were processed

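ATAC-seq was made from leaf nuclei of each accession. Per the labels and file headers, the authors used Bowtie 1.2.2 with the TAIR10 build and called peaks with MACS2 2.1.2, without a control, per file; the methods of the study speak of alignment to the own genome of each accession. The deposited lists give, per peak, the pileup signal at the summit, −log10 p-values and −log10 q-values, and the fold enrichment as a ratio over the local background. The pileup was divided by the tags in the header (1463227 to 2442198 per file, which limits weak peaks); the highest peak that overlapped a region was taken per file, and means were taken over files that listed one, so levels near the limit are overstated. Of the other files of the series, only those of untreated Col-0 were used.

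Python 3.11.15, NumPy 2.4.6, pandas 2.3.3 and matplotlib 3.10.9 were used. Genes, coordinates and sequence came from RefSeq TAIR10.1, whose nuclear chromosomes are those of TAIR10; 37899 annotated genes were used. Region code was tested on simulated data. The regions named were the 12 strict En-2-only regions with the highest level, the strict missing regions (at most 12, of which 7 existed), the 6 largest folds above and below, and members of gene lists with such a region nearest. Members and lists were chosen with earlier results of these data known. All comparisons are descriptive. Alternatives covered the q-value, files required, overlap, limits, list length, scaling and left-out files. Of the 12 strict regions, 1 is not reported here. Of the lists, 2 of the 15 glucosinolate genes were not matched.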

Additional observations from a re-analysis of the deposited data

Results flagged for a closer look

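In each accession, the 4 files were searched for one that stood far from the rest in tags, peaks, fragment length and the levels of the named regions. Of 115 such groups of 4 values, 4 held one, or 3.48%, and chance flags about 1 in 20. At the tandem repeat region near AT5G31821, Hi replicate 1 had 14.5 ppm, against 12.8 to 13.1 in the other 3 files, and En-2 had no peak. At the tandem repeat region near AT5G31770, Og replicate 1 had 57.3 ppm, against 54.9 to 55.0 in the other 3. Hi replicate 2 listed 5564 nuclear peaks, against 5801 to 5829, and Mt replicate 3 listed 18995, against 20943 to 21327. No En-2 file stood apart in this way.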

How the results depend on the processing

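No paired analysis was possible because the results come from no test and the 4 files of an accession were counted as 1 sample. The 562 En-2-only regions stayed within 1.5 times under 20 of 21 alternatives and became 224 when no file of another accession could list a peak. The 61 missing regions became 92 with 1 or more of 4 files, 30 with no peak in any En-2 file, 107 with equal numbers of peaks per file, and, in alternatives chosen after seeing the data, 38 in single-copy sequence and 4135 of 13750 (30.1%) against Mt and Og only. The strict sets of 36 and 7 became 79 and 851 against Mt and Og only, and 4 of the 7 were single-copy. Of the levels, the 30 regions above became 0 after scaling by shared regions, 1 by fold enrichment, 285 at 1.5 times and 1 at 3 times, and the 5 below became 11, 1, 13 and 1, and 0 in single-copy sequence. The En-2-only regions above the limit of depth were 206 of 562 after scaling by shared regions. The share of En-2-only regions before a start was 24.2% with 500 bp and 62.8% with 2 kb. Leaving out files gave 392 to 569 En-2-only regions, 57 to 103 missing regions, 41 to 67 and 7 to 13 strict ones, and 25 to 36 above and 5 to 7 below. The strict rule is looser with fewer files. Above the 10th percentile of listed pileups were 456 of the 562 with header tags and 53 with that scaling (56 in Ad-0, 53 in Hi, 433 in Mt and 238 in Og).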

Other observations

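Of the 36 strict En-2-only regions, 20 had their centre outside annotated genes, 7 in an intron, 5 in a non-coding exon and 4 in a coding exon. The shares of these places over all En-2 regions were not counted, so whether the counts are unusual is not known. A pair of strict regions on chromosome 1, across the start of the pseudogene AT1G20390 and in an intron of AT1G20400, lay 9674 bp apart, and the 30-mers of both occur 2 times in the reference (median), with mean En-2 levels of 8.06 and 8.41 ppm. Regions of all 5 accessions in single-copy sequence that were at most 0.5 times the lowest other accession after scaling by shared regions numbered 3. Near AT3G48550 En-2 averaged 7.41 ppm, against means of 10.3 to 22.4 ppm in the others (0.42 times after scaling), at the RNA gene AT1G05633 it averaged 7.09, against 10.9 to 16.5 (0.43 times), and at the pseudogene AT2G07600 it averaged 18 ppm, against 30.2 to 49.2 (0.45 times).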
